A study of Mus musculus with 9 samples.

Results

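The genes whose RNA level changed in the same direction in alphaIRS1KD and in alphaIRS2KD cells are described here, read from a contrast that sets both knockdowns, each with equal weight, against control cells. All cells were alpha TC6 cells, a mouse line that grew out of a tumor of the glucagon-producing alpha cells of the pancreas. Each was a stable line carrying a short hairpin RNA from a lentivirus: a nonsilencing hairpin in control cells, a hairpin against insulin receptor substrate 1 (IRS1) in alphaIRS1KD cells, and a hairpin against IRS2 in alphaIRS2KD cells. RNA of each line was measured on 3 microarrays, so the contrast used 6 knockdown arrays and 3 control arrays, which are all 9 arrays of the series. Values are log2 RMA signals, in which a difference of 1 is a 2-fold change. The sources used here do not say whether the 3 arrays of a line came from separate cultures, so p-values measure the spread between these arrays, which may be technical, and since each group was 1 line, the effect of a hairpin and any other difference between the lines cannot be told apart.

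IRS proteins are docking proteins without enzyme activity of their own. The insulin and IGF-1 receptors phosphorylate them on tyrosines, and the phosphorylated sites then recruit PI3-kinase, which activates AKT, and the adaptor GRB2, which leads to ERK. AKT holds FOXO transcription factors in the cytoplasm, so genes that FOXO factors drive are held down while the pathway is active. Alpha cells carry both IRS proteins, and insulin restrains their release of glucagon.

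Each hairpin was read first on its own target. *Irs1* read 8.06, 8.09 and 8.07 in control arrays, 7.16, 7.12 and 7.22 in alphaIRS1KD arrays and 8.10, 8.16 and 8.01 in alphaIRS2KD arrays, a log2 change of -0.91 ± 0.06 (SE) in the first knockdown and 0.02 ± 0.06 in the second. *Irs2* read 10.72, 10.64 and 10.58 in control, 10.44, 10.56 and 10.51 in alphaIRS1KD and 10.09, 10.02 and 10.11 in alphaIRS2KD arrays, with changes of -0.15 ± 0.06 and -0.58 ± 0.06. Each target was therefore lower in its own line (adjusted p = 3.2e-05 for *Irs1* and 0.0017 for *Irs2*), and the other substrate did not pass the test there (adjusted p = 0.23 for *Irs2* in alphaIRS1KD and 0.95 for *Irs1* in alphaIRS2KD cells). *Gcg*, which encodes glucagon, read 13.25, 13.25 and 13.23 in control, 13.21, 13.21 and 13.21 in alphaIRS1KD and 13.21, 13.21 and 13.21 in alphaIRS2KD arrays (adjusted p = 0.75). These values lie close to the highest signal of an array, 13.53 to 13.61, so a change in *Gcg* RNA may not be readable here.

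Of 22180 genes, 883 passed an adjusted p of 0.05 in the pooled contrast (3.98% of those tested), by limma with Benjamini-Hochberg adjustment over all genes. A gene was read as shared where both knockdowns had also moved in the same direction: 395 genes were higher (1.78%) and 449 were lower (2.02%), and the other 39 had moved in opposite directions. Among the shared genes, 128 higher and 113 lower genes also passed in each knockdown taken alone (0.577% and 0.509% of all genes), while 221 and 294 passed in alphaIRS1KD alone and 34 and 25 in alphaIRS2KD alone. The 6 knockdown arrays lay wholly above the 3 control arrays in 325 of the 395 and wholly below in 375 of the 449, against 3.62% and 4.01% of all genes. This follows in part from how the genes were picked, on the same arrays, and is not separate support for them. Both changes of a gene are taken from the same 3 control arrays, so a control array that reads high or low moves them together. The shared counts were 261 higher and 276 lower without control replicate 1, 232 and 239 without control replicate 2, and 252 and 241 without control replicate 3. With the mean of each line as 1 sample, which leaves 2 lines against 1, no gene passed (smallest adjusted p by limma = 0.94, with 450 higher and 467 lower genes at an unadjusted p under 0.05).

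The shared changes were mostly larger in alphaIRS1KD cells. The change in alphaIRS1KD exceeded that in alphaIRS2KD for 310 of the 395 higher and 374 of the 449 lower genes, and the median log2 change was 0.48 against 0.30 among the higher and -0.49 against -0.27 among the lower genes. The test of the difference between the knockdowns passed for 169 and 182 of them, 4.13% of all genes passing that test. At least a 2-fold change in each knockdown was reached by 7 higher and 6 lower genes. Shared genes were also brighter than the average gene, with a median control signal of 7.09 for the higher and 8.17 for the lower genes against 5.48 over all. Some genes named below had a mean control signal under 5.48, among them *Tlr3* (3.72), *Rab27b* (4.48), *Sv2b* (4.53), *Mir344-2* (4.76), *Dcc* (4.77) and *St8sia1* (5.03). Whether such dim signals stand for expressed genes was not tested. Among the 9672 genes with a control signal of 6 or more, 2.91% were shared higher and 4.04% shared lower. Counts of the gene lists below are to be read against these shares and those over all genes.

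**Figure D1:**
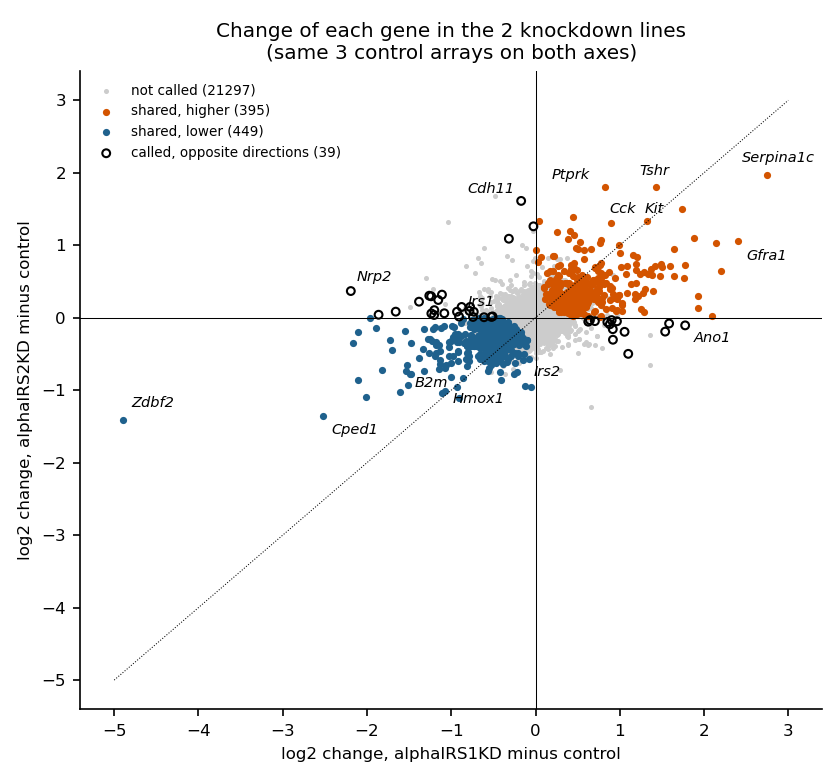
Log2 change of each of 22180 genes in alphaIRS1KD (horizontal) and alphaIRS2KD (vertical) cells against the same 3 control arrays; orange and blue points are the 395 higher and 449 lower shared genes, rings the 39 called genes whose knockdowns moved in opposite directions, and the dotted line marks equal changes. Most blue and orange points lie on the horizontal side of the dotted line, where the alphaIRS1KD change is the larger; *Zdbf2* and *Serpina1c* lie farthest out.

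The shared genes with the largest change in the weaker of the 2 knockdowns included cell surface receptors and a peptide hormone. *Kit*, the receptor tyrosine kinase for stem cell factor, read 7.63, 7.47 and 7.62 in control arrays, 9.33, 9.35 and 9.24 in alphaIRS1KD and 9.18, 9.07 and 8.98 in alphaIRS2KD arrays. *Tshr*, the G protein-coupled receptor for thyrotropin, read 6.61, 6.70 and 6.64 in control, 8.09, 8.08 and 8.07 in alphaIRS1KD and 8.43, 8.51 and 8.41 in alphaIRS2KD arrays. In both genes every knockdown array lay more than 1 log2 unit above every control array, and the pooled change was 1.62 ± 0.06 for *Kit* (adjusted p = 4e-06) and 1.62 ± 0.04 for *Tshr* (adjusted p = 5.3e-07). *Gfra1*, the GDNF co-receptor that works with the RET kinase, read 6.55, 6.57 and 6.79 in control, 8.95, 9.05 and 9.14 in alphaIRS1KD and 7.76, 7.79 and 7.53 in alphaIRS2KD arrays, so the lines did not overlap with each other either. *Cck*, which encodes the gut and brain peptide cholecystokinin, read 6.12, 6.07 and 5.77 in control, 7.47, 7.27 and 7.17 in alphaIRS1KD and 7.22, 7.26 and 7.48 in alphaIRS2KD arrays (pooled change 1.33 ± 0.10, adjusted p = 0.00018). Of 39 measured islet, gut and neuropeptide hormone genes it was the only one that was shared and higher, and *Npy*, which encodes neuropeptide Y, was the only one that was shared and lower (-0.80 and -0.47, adjusted p = 0.016), a call lost without control replicate 1 and without control replicate 3.

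The highest ratio belonged to *Serpina1c*, a gene of the alpha-1 antitrypsin cluster. It read 4.09, 4.18 and 3.66 in control, 6.57, 6.69 and 6.91 in alphaIRS1KD and 6.00, 6.00 and 5.86 in alphaIRS2KD arrays, from a dim level to a moderate one. Its 5 measured paralogs, *Serpina1a*, *Serpina1b*, *Serpina1d*, *Serpina1e* and *Serpina1f*, were not shared genes, and because the cluster holds near-identical copies, which of them gave this signal is uncertain. *Trp53i11* (1.88 in alphaIRS1KD and 1.10 in alphaIRS2KD), *Man1a*, a Golgi mannosidase that trims N-glycans (2.14 and 1.03), and *Asb4*, a subunit of ubiquitin ligases (1.65 and 0.94), were higher by a log2 unit or nearly so in each line. *Foxp2*, a forkhead transcription factor, rose from 4.73, 4.79 and 4.80 in control to 6.57, 6.43 and 6.64 in alphaIRS1KD and 5.55, 5.53 and 5.41 in alphaIRS2KD arrays. The secreted factors in this group were *Bmp7*, a ligand of the BMP receptors (1.5 and 0.74), *Ntn1*, netrin-1 (1.19 and 0.74), and *Pappa2*, a protease that cleaves IGF-binding proteins (0.78 and 1.08). *Ptprk*, a receptor tyrosine phosphatase, was 1 of 7 among the 20 with the larger change in alphaIRS2KD cells (0.83 against 1.80). The remaining genes of the 20 were *Ptgfrn*, *St8sia4*, *Sv2b*, *Insyn2b*, *Cdc42ep3*, *Arhgap6* and *Sh3rf3*, with changes of 0.77 to 1.20 in alphaIRS1KD and 0.76 to 1.31 in alphaIRS2KD cells. All 20 passed in each knockdown alone, the largest pooled adjusted p among them was 0.0067, and none lost the pooled call when any 1 array was left out.

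**Figure D2:**
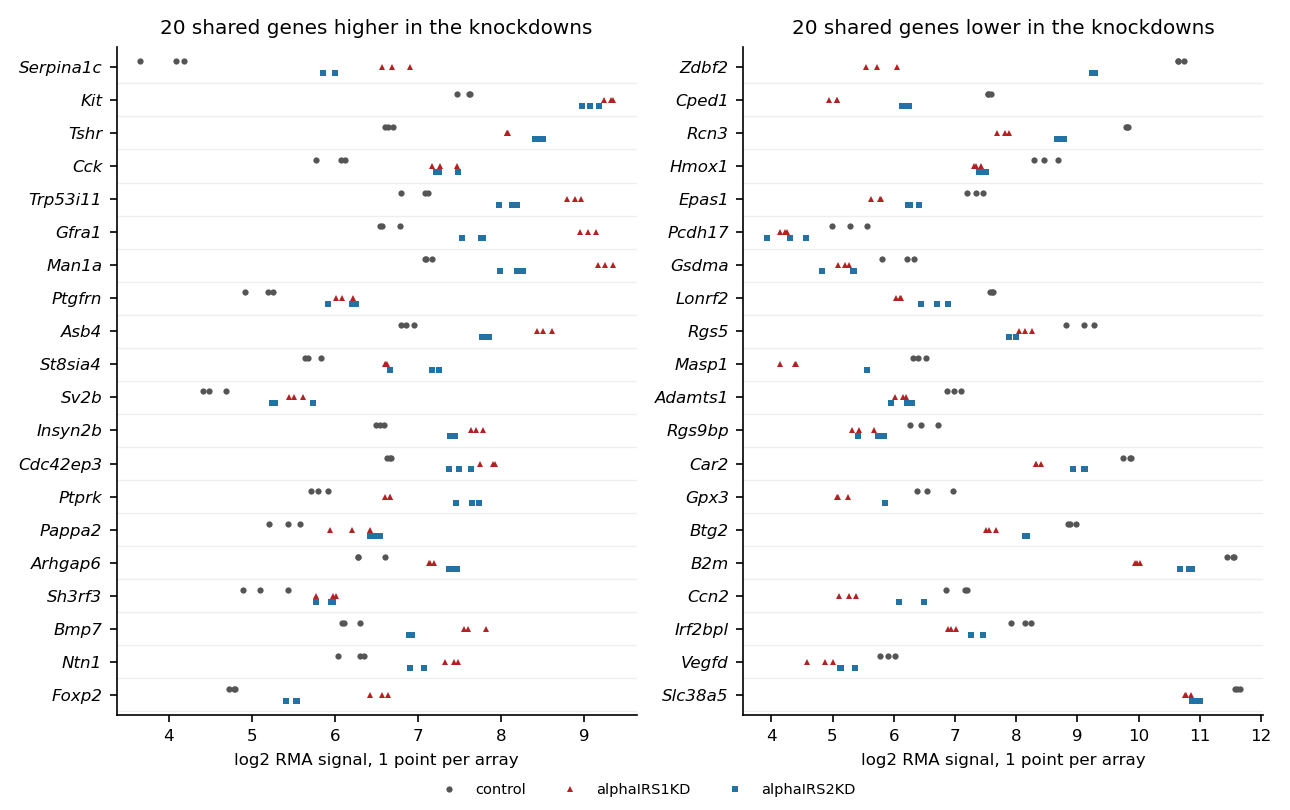
Log2 RMA signal of the 20 shared genes per direction with the largest smaller change, 1 point per array (grey circles control, red triangles alphaIRS1KD, blue squares alphaIRS2KD, 3 each). No knockdown point overlaps a control point of the same gene, which is part of how the genes were chosen, and *Zdbf2*, *Gfra1*, *Man1a* and *Foxp2* show the alphaIRS1KD arrays farther from control than the alphaIRS2KD arrays.

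Genes of axon guidance and neural cell adhesion were among the shared higher genes. Guidance genes encode the netrin, slit, semaphorin and ephrin ligands and their receptors, which steer growing axons and also act in epithelial and endocrine cells. Of 52 measured guidance genes, 10 were shared and higher and 2 shared and lower, against 1.78% and 2.02% of all genes, with a median pooled change of 0.04 against 0.00 over all genes. Beside *Ntn1*, the netrin receptors *Dcc* (0.51 in alphaIRS1KD and 0.95 in alphaIRS2KD, adjusted p = 0.0016) and *Unc5a* (0.75 and 0.47, adjusted p = 0.0023) were higher, whereas *Unc5c*, another netrin receptor, was lower (-0.79 and -0.34, adjusted p = 0.00021). The ephrin ligand *Efna5* read 6.13, 6.13 and 6.03 in control, 7.28, 7.39 and 7.19 in alphaIRS1KD and 6.71, 6.92 and 6.62 in alphaIRS2KD arrays. The slit receptor *Robo2* was higher by 0.81 and 0.47 (adjusted p = 0.00042). The count of higher guidance genes was 6 without control replicate 1, without control replicate 2, without control replicate 3 and without alphaIRS1KD replicate 2, and 6 with 1 lower gene after median centring.

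Of 47 measured cadherins and neural adhesion genes, 6 were shared and higher and 3 shared and lower. *Ncam1*, the neural cell adhesion molecule, which islet endocrine cells also carry, read 9.54, 9.51 and 9.41 in control, 10.19, 10.26 and 10.35 in alphaIRS1KD and 10.08, 9.96 and 10.06 in alphaIRS2KD arrays. *St8sia4*, one of the polysialyltransferases that attach polysialic acid to NCAM, read 5.68, 5.84 and 5.64 in control, 6.62, 6.60 and 6.63 in alphaIRS1KD and 7.25, 7.17 and 6.66 in alphaIRS2KD arrays. Of 20 measured sialyltransferases, enzymes that add sialic acid to glycans, 4 were shared and higher and none shared and lower: *St8sia4*, *St3gal1* (0.57 and 0.81), *St3gal4* (0.44 and 0.43) and the GD3 synthase *St8sia1* (0.53 and 1.05). Their number was 2 without control replicate 1 or without control replicate 2. Over all genes 1.78% were shared and higher. The median pooled change of the 20 sialyltransferases was 0.04. The family was picked after its values were seen, so its count is not separate support. The cadherin *Cdh22* was higher by 0.48 and 0.44, while *Pcdh17*, a protocadherin, fell from 5.56, 4.99 and 5.28 to 4.26, 4.23 and 4.14 in alphaIRS1KD and 3.93, 4.31 and 4.56 in alphaIRS2KD arrays.

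Among 55 genes of insulin and IGF signaling the shared genes were *Gab2*, *Inppl1* and *Irs2*. *Gab2*, a docking protein that like the IRS proteins recruits PI3-kinase, read 8.13, 8.19 and 8.10 in control, 8.76, 8.69 and 8.74 in alphaIRS1KD and 8.57, 8.51 and 8.50 in alphaIRS2KD arrays (pooled change 0.49 ± 0.04, adjusted p = 0.0004). *Inppl1* encodes SHIP2, a phosphatase that removes a phosphate from the lipid that PI3-kinase makes, and was higher by 0.45 and 0.29 (adjusted p = 0.0017). The list's median pooled change was 0.00, as over all genes, and 5.45% of its members were shared in either direction against 3.81% of all genes. Of 25 FOXO target genes, 5 were shared and lower and 1, *Pdk4*, shared and higher (0.32 and 0.12). The lower ones were *Irs2*, the target of 1 of the hairpins, *Sesn3*, a sestrin (-0.32 and -0.32, adjusted p = 0.0027), *Trib1*, *Cited2* and *Txnip*. The last 3 had pooled changes of -0.36, -0.35 and -0.24, and each lost the call in at least 7 of the 9 fits that left out 1 array. The lower count was 2 or 3 in the 8 fits without a single array other than alphaIRS2KD replicate 1.

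Receptors moved in both directions. Of 48 receptor tyrosine kinases and the ligand of KIT, 4 were shared and higher and 1 shared and lower. Beside *Kit* these were the orphan receptors *Ror1* (0.73 and 0.40, adjusted p = 0.0028) and, in the opposite direction, *Ror2* (-0.46 and -0.31, adjusted p = 0.019), with *Fgfr2* (0.42 pooled) and *Ephb4* (0.46 pooled). The higher count was 2 without control replicate 2, control replicate 3, alphaIRS1KD replicates 2 or 3, or alphaIRS2KD replicate 2. Of 51 hormone and transmitter receptors of islet cells, 5 were shared and higher and 3 shared and lower (5 lower without alphaIRS2KD replicate 2). *Galr1*, a galanin receptor, was higher by 0.42 and 0.72, the adhesion receptor *Adgrg1* (GPR56) by 0.43 and 0.67, and the VIP receptor *Vipr1* by 0.40 and 0.31. *Avpr1b*, the vasopressin receptor of alpha cells and pituitary corticotrophs, fell from 8.36, 8.28 and 8.10 in control to 6.95, 6.86 and 6.91 in alphaIRS1KD and 7.79, 7.96 and 7.70 in alphaIRS2KD arrays. The ghrelin receptor *Ghsr* (-1.89 and -0.15) and the natriuretic peptide clearance receptor *Npr3* (-1.72 and -0.31) were lower too, mostly in alphaIRS1KD cells, and the growth hormone receptor *Ghr* was higher (0.41 pooled).

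Lower genes were led by *Zdbf2*, a paternally expressed imprinted gene. It read 10.74, 10.64 and 10.65 in control, 6.06, 5.72 and 5.55 in alphaIRS1KD and 9.28, 9.24 and 9.28 in alphaIRS2KD arrays, so the 3 lines stood clear of each other and the alphaIRS1KD arrays came near the median control signal of all genes, 5.48. *Cped1* (-2.53 in alphaIRS1KD and -1.35 in alphaIRS2KD), *Rcn3*, a calcium-binding protein of the ER lumen (-2.01 and -1.10), and *Lonrf2* (-1.51 and -0.92) followed. *Hmox1*, heme oxygenase 1, which degrades heme and rises under oxidative stress, read 8.29, 8.46 and 8.68 in control, 7.35, 7.31 and 7.43 in alphaIRS1KD and 7.51, 7.42 and 7.39 in alphaIRS2KD arrays. *Epas1*, which encodes the hypoxia-inducible factor HIF-2α, read 7.45, 7.35 and 7.19 in control, 5.79, 5.77 and 5.63 in alphaIRS1KD and 6.42, 6.23 and 6.27 in alphaIRS2KD arrays. For *Hmox1* the knockdowns overlapped with each other and not with control, while for *Epas1* all 3 lines were apart. Genes of proteins that act outside the cell were *Masp1*, a serine protease of the lectin complement pathway (-2.10 and -0.86), *Adamts1*, a matrix protease (-0.86 and -0.83), *Ccn2*, connective tissue growth factor (-1.82 and -0.72), *Gpx3*, the secreted glutathione peroxidase (-1.49 and -0.78), and *Vegfd* (-1.08 and -0.69). *Car2*, carbonic anhydrase 2, fell by 1.48 and 0.78 on the log2 scale, *Rgs5*, a regulator of G protein signaling, by 0.91 and 1.10, and *Btg2*, an antiproliferative p53 target, by 1.32 and 0.74. *Slc38a5*, an amino acid transporter that marks proliferating alpha cells in mice, read 11.61, 11.65 and 11.57 in control, 10.76, 10.86 and 10.78 in alphaIRS1KD and 10.97, 11.00 and 10.87 in alphaIRS2KD arrays. The others of the 20 were *Pcdh17*, *B2m*, *Gsdma*, *Rgs9bp* and *Irf2bpl*, the last 3 with pooled changes of -0.94, -0.91 and -0.93. All 20 passed in each knockdown alone, the largest pooled adjusted p was 0.0073, and none lost the pooled call when any 1 array was left out.

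**Figure D3:**
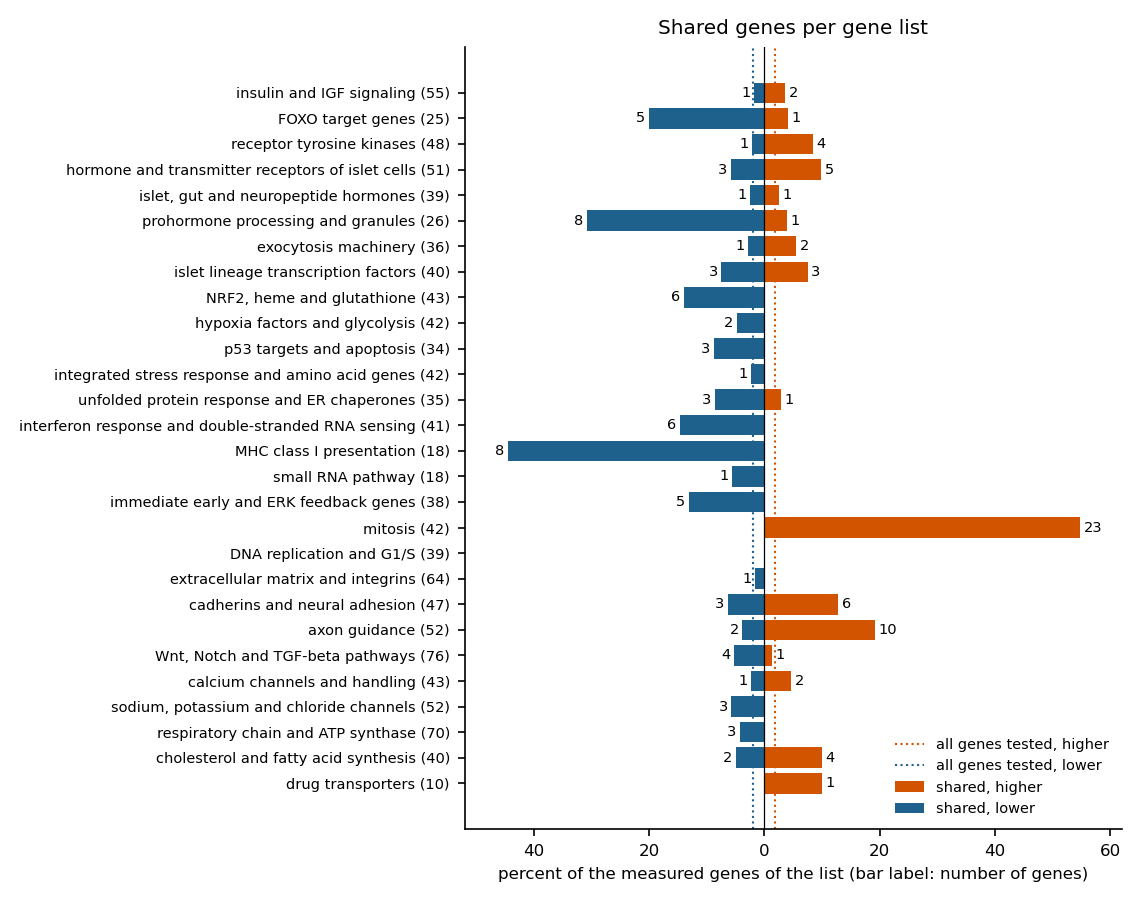
Share of the measured genes of each list that were shared and higher (orange, to the right) or shared and lower (blue, to the left), in percent, with the number of genes at each bar, the number measured in parentheses and dotted lines at 1.78% and 2.02%, the shares over all genes. Mitosis reaches farthest to the right with 23 of 42 genes and MHC class I presentation farthest to the left with 8 of 18.

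Of the genes of antigen presentation on MHC class I, a large share was lower. MHC class I molecules consist of a heavy chain and beta-2 microglobulin, show peptides made by the proteasome to T cells, and are raised by interferons. Of 18 measured genes 8 were shared and lower and none shared and higher, against 2.02% lower over all genes, and the median pooled change was -0.32 (-0.39 in alphaIRS1KD and -0.21 in alphaIRS2KD). *B2m*, the beta-2 microglobulin gene, read 11.55, 11.45 and 11.56 in control, 9.94, 10.02 and 9.98 in alphaIRS1KD and 10.82, 10.87 and 10.68 in alphaIRS2KD arrays, a fall that separated the 3 lines. The other lower genes were the immunoproteasome subunits *Psmb8* (-0.38 in alphaIRS1KD and -0.48 in alphaIRS2KD), *Psmb9* (-0.40 and -0.20) and *Psmb10* (-0.62 and -0.34), the heavy chains *H2-K1* (-0.64 and -0.28) and *H2-M3* (-0.57 and -0.31), the MHC-related *Mr1* (-0.60 and -0.30) and the peptide-loading protein *Tapbp* (-0.64 and -0.03). For *Tapbp* the alphaIRS2KD arrays overlapped the control arrays. Only *B2m* and *Psmb8* passed in each knockdown alone, and heavy chain genes have close copies whose signals may mix. The count was 4 without control replicate 2 and 3 without control replicate 3.

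**Figure D4:**
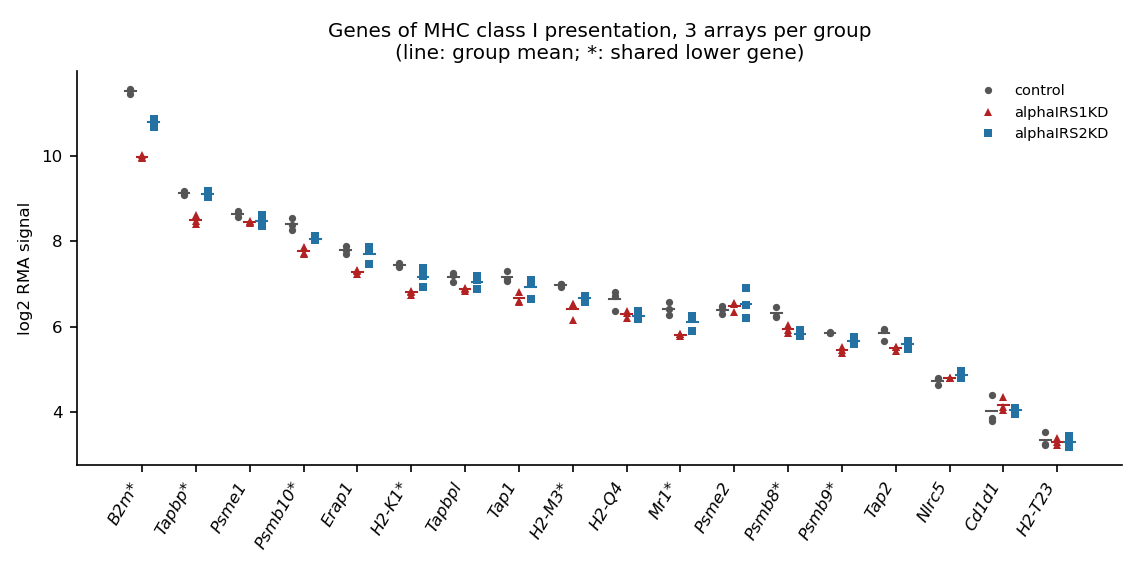
Log2 RMA signal of the 18 measured genes of MHC class I presentation, ordered by control level, with 3 arrays per group and a line at each group mean; asterisks mark the 8 shared lower genes. *B2m* is the brightest and shows the widest gap, with its alphaIRS1KD arrays lowest.

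The interferon list held fewer shared genes, all lower: of 41 measured genes, 6 were shared and lower and none shared and higher, with a median pooled change of -0.06. *Bst2*, tetherin, read 7.04, 7.09 and 7.12 in control, 6.34, 6.22 and 6.20 in alphaIRS1KD and 6.59, 6.59 and 6.37 in alphaIRS2KD arrays. *Lgals3bp* (-0.70 and -0.40), *Isg20* (-0.29 and -0.44), *Ifi27* (-0.42 and -0.32), the double-stranded RNA receptor *Tlr3* (-0.50 and -0.42) and the cytoplasmic RNA sensor *Ifih1* (-0.40 and -0.22) were also lower. *Tlr3* was dim, with a mean control signal of 3.72. The count was 3 without any 1 of the control arrays, and *Tlr3* and *Ifih1* lost the call in 7 of the 9 fits without 1 array. The promoters of *B2m* and *Bst2* are shown because both genes fell in each knockdown and both hold the interferon-stimulated response element, searched on both strands as GAAA, any 2 bases and GAAA, and marked in capitals. They are taken from RefSeq (GRCm38.p6) and run from 250 bases before to 50 after the start of the gene.
B2m, chr2:122147437-122147736, plus strand: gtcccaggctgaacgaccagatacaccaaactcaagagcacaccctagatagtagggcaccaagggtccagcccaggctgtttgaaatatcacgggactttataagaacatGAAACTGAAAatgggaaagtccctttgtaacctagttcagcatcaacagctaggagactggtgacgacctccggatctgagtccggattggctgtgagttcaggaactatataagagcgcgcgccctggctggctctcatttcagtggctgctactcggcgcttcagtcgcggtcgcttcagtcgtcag
Bst2, chr8:71537423-71537722, minus strand: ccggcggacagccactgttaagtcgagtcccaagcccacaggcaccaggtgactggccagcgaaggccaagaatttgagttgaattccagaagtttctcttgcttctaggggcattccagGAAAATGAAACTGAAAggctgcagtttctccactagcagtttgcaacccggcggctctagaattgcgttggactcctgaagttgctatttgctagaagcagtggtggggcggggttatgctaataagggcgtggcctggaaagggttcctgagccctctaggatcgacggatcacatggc
*B2m* holds 1 match and *Bst2* holds 2, which overlap. The element was found in 3.32% of the 20520 promoters of all tested genes, in 32.5% of 40 promoters of the interferon list and in 25% of 16 promoters of the MHC class I list, but in only 11.1% of the 9 promoters of the shared genes of the MHC class I list, that of *B2m*. It was found in 2.68% of the promoters of shared lower genes, and a match is a description of the letters and not of a bound factor.

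Some genes of the response to oxidants and of other stress pathways were lower. Of 43 genes of the NRF2, heme and glutathione list, 6 were shared and lower and none shared and higher (3 lower without control replicate 3). Beside *Hmox1* they included epoxide hydrolase *Ephx1* (-0.56 in alphaIRS1KD and -0.60 in alphaIRS2KD) and the glutathione transferases *Gsta4* (-0.39 and -0.31) and *Gstp1* (-0.45 and -0.24), *Gstp1* losing the call in 8 of the 9 fits without 1 array. In the list of hypoxia factors and glycolysis, *Epas1* and *Ddit4*, an inhibitor of mTOR complex 1 (-0.56 and -0.69), were the only shared genes among 42, and no glycolytic enzyme was shared. *Ddit4* was also the only shared gene of 42 in the integrated stress response list. These are 4.76% and 2.38% of the members, against 3.81% of all genes, and *Ddit4* lost the call without control replicate 2 and without control replicate 3. Of 34 p53 targets and apoptosis genes, *Btg2*, *Ccng1* (-0.40 pooled) and *Trp53inp1* (-0.58 pooled) were lower.

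Some immediate early genes and feedback genes of growth factor signaling were lower as well. Of 38 immediate early and ERK feedback genes, 5 were shared and lower and none shared and higher: *Ccn2*, *Dusp6*, *Atf3*, *Egr1* and *Phlda1*. They are 13.2% of the list, against 3.81% of all genes that were shared in either direction. *Dusp6*, the phosphatase that inactivates ERK and is itself induced by ERK, read 9.78, 9.64 and 9.42 in control, 8.56, 8.51 and 8.19 in alphaIRS1KD and 9.24, 9.13 and 8.89 in alphaIRS2KD arrays. *Atf3*, a stress-induced transcription factor, fell by 0.62 and 0.42 on the log2 scale, *Egr1* by 0.97 and 0.12, and *Phlda1* by 0.46 and 0.23. Of 76 genes of the Wnt, Notch and TGF-beta pathways, 6.58% were shared, against 3.81% of all genes. *Bmp7* was the 1 shared higher gene and 4 were shared and lower: *Id1* (-0.35 and -0.38) and *Id3* (-0.45 and -0.59), inhibitors of helix-loop-helix factors that BMP receptors induce, *Smad7*, an inhibitor of the receptors (-0.13 and -0.50), and the ligand *Tgfb2* (-0.21 and -0.48). *Id3* read 9.14, 9.10 and 9.20 in control, 8.68, 8.67 and 8.74 in alphaIRS1KD and 8.57, 8.52 and 8.57 in alphaIRS2KD arrays, without overlap of the knockdown and control arrays. All but *Id3* lost the call without control replicate 2 and without control replicate 3, which left 1 lower gene.

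Hormone storage and export from the ER showed lower levels that were mainly those of alphaIRS1KD cells. The list of 26 genes written for prohormone processing and granules also held *Ern1*, an ER stress sensor, and *Gpx3*, a secreted glutathione peroxidase. In it 8 genes were shared and lower and 1, *Ern1*, shared and higher (0.43 and 0.20). The median change of the list was -0.20 in alphaIRS1KD and 0.03 in alphaIRS2KD, so in the second line it did not lie below that of all genes. *Resp18*, a granule protein, read 11.33, 11.39 and 11.35 in control, 10.61, 10.57 and 10.64 in alphaIRS1KD and 11.08, 11.10 and 11.08 in alphaIRS2KD arrays, and it and *Gpx3* were the 2 that passed in each knockdown alone. *Pam*, which amidates peptide hormones (-0.46 and -0.10), the prohormone convertase 2 chaperone *Scg5* (-0.48 and -0.01), chromogranin A, *Chga* (-0.50 and -0.02), and secretogranin II, *Scg2* (-0.35 and -0.14), were shared with small changes in alphaIRS2KD. The count was 4 without control replicate 2 and 5 without control replicate 3 or alphaIRS1KD replicate 1 or 2. Of 13 genes with the symbol stems Sec16, Sec22, Sec23, Sec24 and Sec31, 5 were shared and lower and none shared and higher. Several belong to the COPII coat, which carries cargo out of the ER. The lower ones were *Sec24d* (-1.53 and -0.66), *Sec23a* (-0.46 and -0.25), *Sec22b* (-0.43 and -0.22), *Sec31a* (-0.36 and -0.16) and *Sec16a* (-0.44 and -0.11). Over all genes 2.02% were shared and lower. The family was picked after its values were seen, so its count is not separate support. That count was 4 or 5 in the fits without 1 array. *Sec24d*, a cargo-binding subunit, read 8.00, 7.96 and 8.01 in control, 6.36, 6.41 and 6.62 in alphaIRS1KD and 7.34, 7.38 and 7.28 in alphaIRS2KD arrays. The prolyl isomerases *Fkbp11* (-0.42 and -0.44), *Fkbp9* (-0.71 and -0.14) and *Fkbp14* (-0.57 and -0.25) were lower among 13 of that family. The Fkbp family was also picked after its values were seen, and its median pooled change was -0.01. In the unfolded protein response list of 35 genes, *Eif2ak3*, the ER stress kinase PERK, was lower (-0.56 and -0.30, adjusted p = 0.0011), as were *Syvn1* (-0.30 pooled) and *Ssr4* (-0.28 pooled), while *Ern1* was higher. Without control replicate 1 only *Eif2ak3* of the lower genes was left.

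Secretory and lineage genes that were higher were fewer. *Rab27b* (0.49 and 0.66) and *Rab3c* (0.40 and 0.35), small GTPases of secretory vesicles, were the 2 shared higher genes of 36 in the exocytosis list, and *Sytl5*, a synaptotagmin-like protein that binds Rab27, the 1 lower gene (-0.52 and -0.20). *Cacna1d*, the pore-forming subunit of the L-type calcium channel Cav1.3, read 6.08, 6.10 and 6.12 in control, 6.87, 6.80 and 6.83 in alphaIRS1KD and 6.82, 6.86 and 6.54 in alphaIRS2KD arrays. *Cacnb2*, an auxiliary subunit of such channels, fell from 6.74, 6.85 and 6.74 in control to 5.56, 5.52 and 5.57 in alphaIRS1KD and 6.46, 6.48 and 6.43 in alphaIRS2KD arrays, and the T-type channel gene *Cacna1i* was higher (0.44 pooled), which made 2 higher and 1 lower of 43 calcium genes. *Cacna1i* lost the call without control replicate 2 and without control replicate 3. The alpha cell transcription factor genes *Irx1* (0.51 and 0.36, adjusted p = 0.0019) and *Irx2* (0.39 and 0.22, adjusted p = 0.0051), which lie in 1 Iroquois cluster on chromosome 13, were both higher, with *Nkx2-2* (0.22 and 0.21), whose call was lost in 8 of the 9 fits without 1 array. Of 40 lineage factors these 3 were shared and higher, and *Sox9* (-0.80 and -0.34), a factor of pancreatic progenitors and duct cells, *Nkx6-2* (-1.09 and -0.11) and *Myt1l* (-0.39 and -0.15) shared and lower. The lower count was 1 without control replicate 3. The neuronal RNA-binding proteins *Elavl2* (0.79 and 0.22), *Elavl3* (0.18 and 0.18) and *Elavl4* (0.28 and 0.48) were higher among 4 measured Elavl genes, *Elavl3* losing the call in all 9 fits without 1 array. The Elavl family was picked after its values were seen, and 1.78% of all genes were shared and higher. *Mapk11* (1.19 and 0.48) and its neighbor *Mapk12* (1.25 and 0.12), both p38 kinases, were higher, *Mapk12* without passing in alphaIRS2KD cells alone (adjusted p = 0.69). The list of 40 genes of cholesterol and fatty acid synthesis also held *Abca1* and *Abcg1*, which encode transporters. *Srebf1*, *Acly*, *Abca1* and *Abcg1* were higher with pooled changes of 0.18 to 0.31, and *Acly* and *Abcg1* lost the call in 8 of the 9 fits without 1 array. *Sqle* and *Ebp*, enzymes of cholesterol synthesis, were lower with pooled changes of -0.24 and -0.25.

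Many mitotic genes were higher by small amounts, mainly in alphaIRS1KD cells. These genes encode the kinases, kinesins and kinetochore proteins of cell division and peak together before it. All 42 measured had a pooled change above 0, 23 were shared and higher (1.78% of all genes were), and the median was 0.23, made of 0.38 in alphaIRS1KD and 0.07 in alphaIRS2KD. Not all of the 42 lay above 0 in alphaIRS2KD cells. *Ccnb2*, cyclin B2, read 8.82, 8.68 and 8.67 in control, 9.42, 9.27 and 9.19 in alphaIRS1KD and 9.04, 9.02 and 8.85 in alphaIRS2KD arrays. *Cdk1*, the kinase that cyclin B activates, read 9.49, 9.52 and 9.51 in control, 9.77, 9.87 and 9.89 in alphaIRS1KD and 9.68, 9.70 and 9.61 in alphaIRS2KD arrays. *Kif20a*, a kinesin of cytokinesis, was higher by 0.52 and 0.19 (adjusted p = 0.0028 pooled). All 23 passed in alphaIRS1KD cells taken alone and none passed in alphaIRS2KD cells taken alone (smallest adjusted p by limma there = 0.18, *Kif20a*). The count of 23 was 10, 6 and 7 without control replicates 1, 2 and 3, 14 without alphaIRS1KD replicate 2 and 13 after median centring of the arrays. The wider family of Kif kinesins had 7 shared higher and no lower genes among 38, and the higher ones were 3, 1 and 1 without control replicates 1, 2 and 3 and 3 to 8 without a single knockdown array. The Kif family was picked after its values were seen, and its median pooled change was 0.07. None of 39 genes of DNA replication was shared, with a median pooled change of 0.07. The promoters of *Ccnb2* and *Cdk1* are shown because many mitotic promoters hold the same pair of short elements, the cell cycle homology region TTTGAA and the CCAAT box, here searched on both strands and marked in capitals, as ATTGG where CCAAT lies on the other strand (RefSeq, GRCm38.p6, same window as above).
Ccnb2, chr9:70421505-70421804, minus strand: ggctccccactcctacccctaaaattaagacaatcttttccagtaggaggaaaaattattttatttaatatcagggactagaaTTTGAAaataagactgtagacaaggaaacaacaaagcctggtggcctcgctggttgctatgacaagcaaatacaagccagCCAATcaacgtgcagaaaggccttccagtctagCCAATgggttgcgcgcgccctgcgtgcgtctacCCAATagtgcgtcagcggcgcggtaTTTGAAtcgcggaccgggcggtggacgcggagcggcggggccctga
Cdk1, chr10:69352863-69353162, minus strand: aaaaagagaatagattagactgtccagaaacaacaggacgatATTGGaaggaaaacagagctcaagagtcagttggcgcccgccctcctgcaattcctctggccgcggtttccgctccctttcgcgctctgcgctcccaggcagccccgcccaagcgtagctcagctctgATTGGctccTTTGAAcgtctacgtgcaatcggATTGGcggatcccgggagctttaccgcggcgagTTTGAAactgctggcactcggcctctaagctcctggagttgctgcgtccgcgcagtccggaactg
Each holds 2 matches to TTTGAA and 3 to CCAAT. The homology region TTTGAA was found in 15.4% of the promoters of all tested genes and in 78.4% of 37 promoters of the mitosis list, and CCAAT in 37.7% and 81.1%. Among the promoters of the shared genes of that list the shares were 90.5% and 81% of 21.

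Several shared genes lay near each other in regions that hold imprinted genes, of which only the copy from 1 parent is active. These regions were picked after the values were seen, their genes were taken in the order of the RefSeq annotation (GRCm38.p6), and every measured gene between the named ends is counted. Between *Dlk1* and *Dio3* on chromosome 12, which on the maternal copy gives long noncoding RNAs with small nucleolar RNAs and microRNAs, 6 of 54 genes were shared and lower, none was shared and higher, 45 had a pooled change below 0 and the median was -0.17. Over all genes 2.02% were shared and lower, and 10991 of 22180 had a pooled change below 0. *Rian*, the host RNA of the small nucleolar RNAs, read 9.24, 9.16 and 9.02 in control, 8.85, 8.85 and 8.83 in alphaIRS1KD and 8.62, 8.59 and 8.62 in alphaIRS2KD arrays. The small nucleolar RNAs *AF357355* (-0.42 and -0.75), *AF357425* (-0.26 and -0.77) and *DQ267102* (-0.24 and -0.62) also had their larger fall in alphaIRS2KD cells, and probes for them cannot be told apart from those for the host RNA they are cut from. Readings of *Rian* and of these RNAs may therefore not be separate, and the count of 6 rests on them in part. *Meg3*, at the start of the same maternal RNAs, *Dlk1* and *Dio3* were not shared genes. The microRNA genes *Mir493* (-0.85 and -0.34, adjusted p = 0.04) and *Mir382* (-0.29 and -0.32, adjusted p = 0.022) were lower, and lost the call in 7 and 5 of the 9 fits without 1 array.

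Between *Mkrn3* and *Ube3a* on chromosome 7, 4 of 21 genes were shared and lower and 1 shared and higher, against 2.02% and 1.78% of all genes. The lower ones lay near each other: *A230057D06Rik* (-0.66 and -0.50), *Mir344* (-0.61 and -0.41), *Mir344-2* (-0.82 and -0.37) and *A330076H08Rik*, a long noncoding RNA that read 8.38, 8.40 and 8.42 in control, 7.45, 7.44 and 7.29 in alphaIRS1KD and 7.74, 7.78 and 7.80 in alphaIRS2KD arrays. *Gm26504*, the higher one (0.40 and 0.61), has 15 probe sets (groups of probes read as 1 value) on the array, of which the brightest was used. Between *Calcr* and *Dlx5* on chromosome 6, 5 of 25 genes were shared and higher and none shared and lower: *Asb4*, the calcitonin receptor *Calcr* (0.99 and 0.31), *Peg10* (0.35 and 0.48), *Ppp1r9a* (0.39 and 0.26) and *Pdk4*. *Asb4* read 6.95, 6.86 and 6.80 in control, 8.61, 8.51 and 8.44 in alphaIRS1KD and 7.86, 7.81 and 7.77 in alphaIRS2KD arrays, the largest change of that region in both lines.

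Over the whole array 472 microRNA genes were tested, of which 6 were shared and lower and none shared and higher. The 6 are 1.27% of them, below the 2.02% of all genes. The mature sequences of the 4 in these regions are shown so that their targets can be looked up, from RefSeq (GRCm38.p6), with the seed, bases 2 to 8, in capitals.
mmu-miR-344-3p, from both Mir344 and Mir344-2: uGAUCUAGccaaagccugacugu
mmu-miR-344-5p, from both Mir344 and Mir344-2: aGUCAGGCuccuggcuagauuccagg
mmu-miR-382-5p: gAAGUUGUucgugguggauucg
mmu-miR-382-3p: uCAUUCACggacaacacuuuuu
mmu-miR-493-5p: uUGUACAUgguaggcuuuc
mmu-miR-493-3p: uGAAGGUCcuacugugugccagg
*Mir344* and *Mir344-2* give the same pair of mature sequences, so their products share their seeds, and no seed is shared between the miR-344, miR-382 and miR-493 loci. The array reads transcripts of these loci and not the mature microRNAs.

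**Figure D5:**
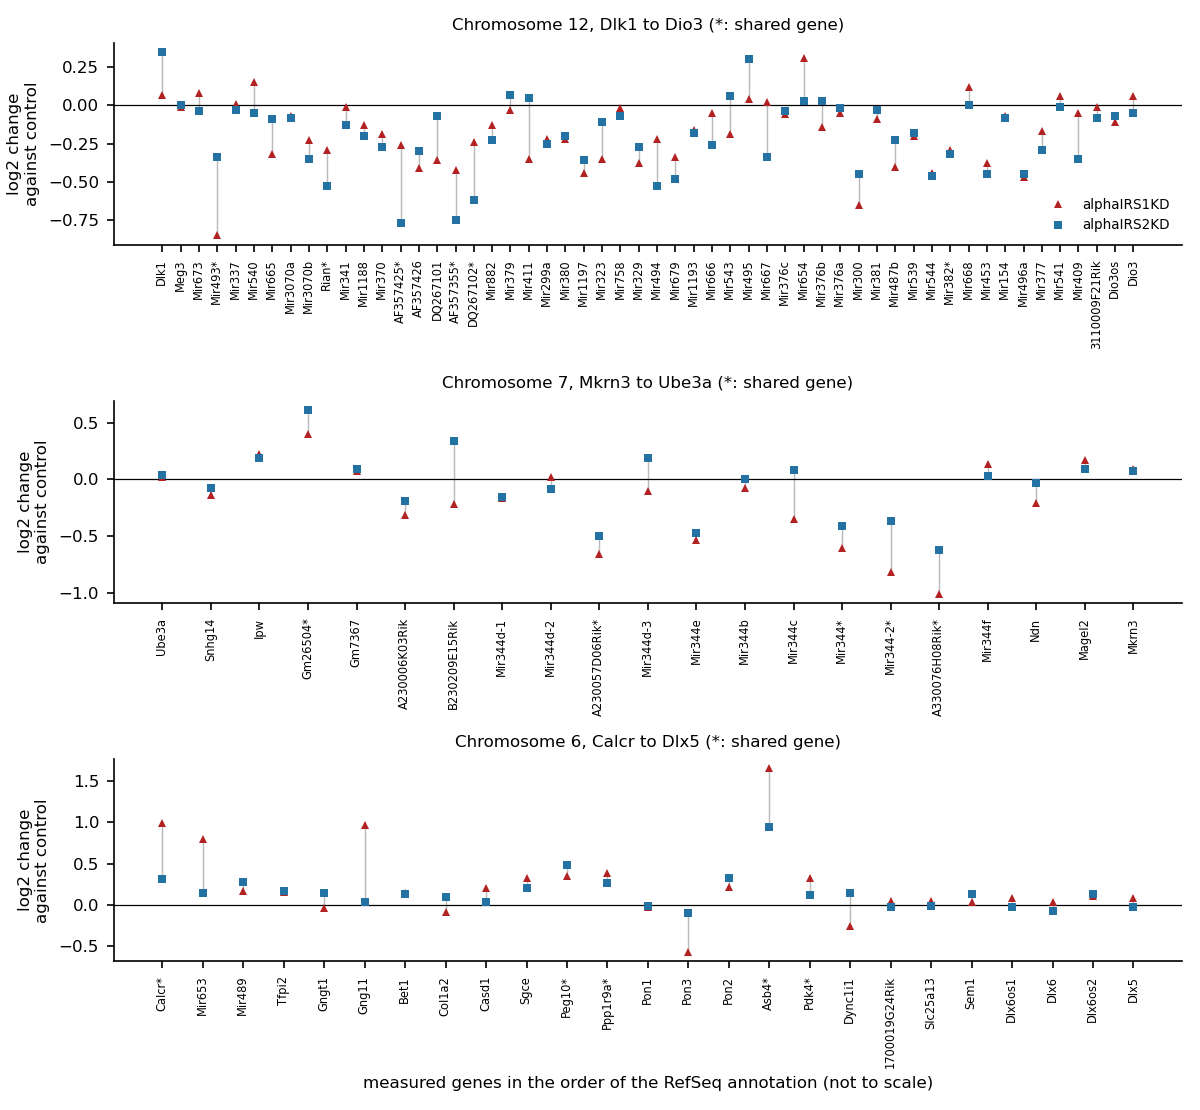
Log2 change against control of every measured gene of 3 regions that hold imprinted genes, in annotation order and not to scale, for alphaIRS1KD (red triangles) and alphaIRS2KD (blue squares); asterisks mark shared genes. On chromosome 12 45 of 54 genes lie below 0 in the pooled contrast, on chromosome 7 the 4 shared lower genes lie near each other, and on chromosome 6 *Asb4* is highest in both lines. Over all genes 10991 of 22180 lie below 0 in the pooled contrast.

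A pooled change can also stand for 1 line. Among shared genes, 221 higher and 294 lower ones passed on their own only in alphaIRS1KD cells. For alphaIRS2KD cells the rule then asked only for the same direction, however small the change. In the 39 called genes with opposite directions (0.176% of all genes), 17 with a higher and 22 with a lower mean, the change in 1 line was mostly near 0. *Ano1*, a calcium-activated chloride channel, read 4.33, 4.87 and 4.86 in control, 6.41, 6.64 and 6.32 in alphaIRS1KD and 4.23, 4.85 and 4.66 in alphaIRS2KD arrays. In 3 of them the change in alphaIRS2KD was the larger: the cadherin *Cdh11* (-0.17 in alphaIRS1KD and 1.61 in alphaIRS2KD), *Sorbs2* (-0.02 and 1.26) and alpha-catenin, *Ctnna1* (-0.32 and 1.09). *Ctnna1* (adjusted p = 0.019 and 0.00013) and the membrane glycoprotein podoplanin, *Pdpn* (1.10 and -0.50, adjusted p = 1.5e-05 and 0.0042), passed in opposite directions in both lines taken alone, and like *Sorbs2* they were named after their values were seen. *Nrp2*, a semaphorin co-receptor, was -2.19 and 0.37, and *Slc35f1* (1.59 and -0.08), *Elmo1* (1.54 and -0.19), *Plpp3* (-1.86 and 0.04), *Morc4* (-1.66 and 0.08) and *Asah2* (-1.24 and 0.06) moved in alphaIRS1KD cells. *Irs1* is itself 1 of these genes. Among 40 genes with the largest shared changes, by contrast, the difference between the lines passed for 12 of 20 higher and 12 of 20 lower genes, and 16 did not pass. Of the 95% intervals of alphaIRS1KD minus alphaIRS2KD for these 16, on the log2 scale and unadjusted, 10 included 0 and 6 did not, with bounds between -0.72 and 0.44. The interval was -0.28 to 0.25 for *Cck*, -0.29 to 0.14 for *Hmox1* and -0.45 to 0.33 for *Pcdh17*, against 0.07 to 0.40 for *Kit*, -0.72 to -0.10 for *St8sia4* and -0.65 to -0.12 for *Vegfd*. *Arhgap6*, *Pappa2* and *Slc38a5* were the other 3 whose interval excluded 0.

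The remaining lists held few shared genes. Of 70 subunits of the respiratory chain and ATP synthase, *Ndufa1* (-0.35 pooled), *Ndufa7* (-0.27) and *Atp5l* (-0.38) were shared and lower and none higher, while 60 had a pooled change below 0 and the median was -0.09. Of 52 sodium, potassium and chloride channel genes, the sodium channel *Scn9a* (-1.19 and -0.38), the potassium channel *Kcnk1* (-0.66 pooled) and *Abcc9*, a subunit of KATP channels (-0.93 and -0.34), were shared and lower and none higher, with a list median of -0.01. The shared genes were 4.29% of the respiratory list and 5.77% of the channel list, near the 3.81% of all genes. *Thbs1*, thrombospondin 1 (-0.89 and -0.07), was the only shared gene of 64 in the matrix and integrin list and was not shared without control replicate 1, where its alphaIRS2KD change turned to 0.011. The RNA-binding Argonaute gene *Ago3* (-0.23 pooled) was the only one of 18 in the small RNA pathway and the nucleoside transporter *Slc29a1* (0.45 pooled) the only one of 10 drug transporters.

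The cells carried alpha cell markers in all 3 lines. The mean log2 signal of 6 measured alpha cell markers was 10.21 to 10.23 in control, 10.18 to 10.22 in alphaIRS1KD and 10.20 to 10.25 in alphaIRS2KD arrays, with *Irx1* and *Irx2* higher and *Ttr*, transthyretin, lower (-0.98 and -0.26, adjusted p = 0.00026). The mean signal of 5 delta cell markers was 6.51 to 6.55 in control, 5.98 to 6.14 in alphaIRS1KD and 6.40 to 6.46 in alphaIRS2KD arrays. *Ghsr* (-1.89 in alphaIRS1KD) and *Rbp4* (-0.49) were shared and lower. The others, *Sst* (0.05), *Lepr* (0.12) and *Hhex* (-0.07), changed little in alphaIRS1KD cells, and none of them was shared. Their mean control signals, 5.43, 2.63 and 5.08, lay below the median of all genes, 5.48. Those of *Ghsr* and *Rbp4* were 7.56 and 11.98. The lower mean of the delta cell markers was thus that of *Ghsr* and *Rbp4*, and not of *Sst*. Of 4 duct markers *Sox9* and of 5 hepatocyte markers *Ttr* was shared and lower, and the hepatocyte marker *Alb*, albumin, moved in opposite directions, 1.36 in alphaIRS1KD (adjusted p = 0.00022) and -0.66 in alphaIRS2KD cells (adjusted p = 0.032). Of the markers of beta, PP, epsilon, acinar, endothelial, fibroblast, macrophage, and neuron and glia cells none was shared, and their mean signals were 4.38 to 6.84 over all arrays. The beta cell mean was 5.58 to 5.64 in control, 5.62 to 5.64 in alphaIRS1KD and 5.6 to 5.96 in alphaIRS2KD arrays: *Iapp*, islet amyloid polypeptide, read 4.86, 4.61 and 4.86 in control, 4.71, 4.86 and 4.65 in alphaIRS1KD and 5.11, 6.35 and 6.44 in alphaIRS2KD arrays (adjusted p = 0.34 pooled), and the insulin gene *Ins2* was above control in all 6 knockdown arrays (0.22 and 0.72, adjusted p = 0.14). The part of these markers in the shared changes was not tested. In a list of 14 measured genes, which are some of those the paper names beside these arrays, *Foxp2* was shared and higher and *Eif2ak3*, *Pam*, *Tapbp* and *Scg5* shared and lower, the last 2 with alphaIRS2KD changes of -0.03 and -0.01. The lower count of 4 became 2 without control replicate 2, control replicate 3 or alphaIRS2KD replicate 3.

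Of the 176 called genes named here, 119 passed the pooled test without any 1 array and 57 did not pass without at least 1. No pooled change turned its direction, but the small alphaIRS2KD change of 4 genes did, which ended their reading as shared: *Thbs1* without control replicate 1, *Scg5* and *Chga* without control replicate 3 and without alphaIRS2KD replicate 1, and *Scg5* and *Tapbp* without alphaIRS2KD replicate 3. Leaving out a control array cost more calls than leaving out a knockdown array: 39, 47 and 49 genes lost the call without control replicates 1, 2 and 3, against 9 to 28 without a single knockdown array, and the highest adjusted p that a lost call reached was 0.18 (*Elavl3* without control replicate 3). The 31 that lost it without 5 or more of the 9 arrays were *Trib1*, *Cited2*, *Txnip*, *Pdk4*, *Nkx2-2*, *Nkx6-2*, *Gstp1*, *Tlr3*, *Ifih1*, *Mr1*, *Smad7*, *Mir382*, *Mir493*, *Ano1*, *Scg5*, *Scg2*, *Chga*, *Elavl3*, *Fkbp14*, *Sec16a*, *Fgfr2*, *Ephb4*, *Ccng1*, *Phlda1*, *Acly*, *Abcg1*, *Sqle*, *Ebp*, *Ago3*, *Ndufa7* and *Ssr4*. The other 26 lost it without at least 1 control array: *Ccnb2*, *Cdk1*, *Psmb9*, *H2-K1*, *H2-M3*, *Tapbp*, *Id1*, *Tgfb2*, *Npy*, *Ror2*, *Peg10*, *St3gal4*, *St8sia1*, *Ddit4*, *Cacna1i*, *Ephx1*, *Isg20*, *Ifi27*, *Syvn1*, *Myt1l*, *Abcc9*, *Pdpn*, *Elmo1*, *AF357425*, *DQ267102* and *Mir344-2*.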

How the data were processed

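RNA of alpha TC6 cells (control, alphaIRS1KD and alphaIRS2KD, 3 arrays each) had been extracted with the RNeasy Mini Kit, labelled with biotin and hybridised to Affymetrix Mouse Gene 2.0 ST arrays. The authors deposited log2 values made by RMA, which corrects background, normalizes by quantiles and summarises probes; no RMA version is given in the sources used here. Median array signals were 5.03 to 5.11; the number of arrays limits the precision. The units into which RMA summarised the probes are called probe sets here. Of 41345 probe sets, 23521 had 1 gene symbol, 1820 had several and 16004 had none in the platform annotation. Probe sets with 1 symbol were used, the brightest by mean signal for 1082 genes with more than 1, with no filter on dim genes, leaving 22180 genes.

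limma 3.58.1 (R 4.3.3) fitted the 3 groups without covariates, and the pooled contrast gave each knockdown a weight of 0.5. Tests were two-sided with Benjamini-Hochberg adjustment over all genes at 0.05, and the script was tested on simulated data. Named genes were *Irs1*, *Irs2*, the 20 shared genes per direction with the largest smaller change and no overlap of knockdown and control arrays, up to 4 members of each of 28 gene lists (all where 5 or fewer were called), a list of genes the paper names, and up to 4 called genes per direction with opposite changes. Other members of the lists, *Sorbs2*, *Ctnna1*, *Pdpn*, the gene families and the imprinted regions were named after their values were seen. All members and lists were chosen with earlier results of these data known.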

Additional observations from a re-analysis of the deposited data

Results flagged for a closer look

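The size of the change differed between the knockdowns in many of the genes named above. The values given are alphaIRS1KD minus alphaIRS2KD on the log2 scale, from limma with Benjamini-Hochberg adjustment over all genes (4.13% of which passed), and no explanation of a difference was tested. With 3 arrays per group, single arrays could not be tested as outliers.

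Among shared higher genes, the rise was larger in alphaIRS1KD cells for *Gfra1* (1.35), *Mapk12* (1.14), *Man1a* (1.11), *Foxp2* (1.05), *Trp53i11* (0.78), *Serpina1c* (0.77), *Bmp7* (0.75), *Mapk11* (0.71), *Asb4* (0.70), *Calcr* (0.68), *Elavl2* (0.57), *Efna5* (0.54), *Ntn1* (0.46), *Ghr* (0.40), *Cdc42ep3* (0.36), *Kif20a* (0.34), *Robo2* (0.34), *Insyn2b* (0.29) and *Abca1* (0.22). It was larger in alphaIRS2KD cells for *Ptprk* (-0.97), *Dcc* (-0.44) and *Tshr* (-0.37).

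Among shared lower genes, the fall was larger in alphaIRS1KD cells for *Zdbf2* (-3.49), *Ghsr* (-1.74), *Npr3* (-1.42), *Masp1* (-1.25), *Cped1* (-1.18), *Ccn2* (-1.10), *Nkx6-2* (-0.97), *Rcn3* (-0.92), *Avpr1b* (-0.91), *Cacnb2* (-0.91), *Sec24d* (-0.87), *Egr1* (-0.85), *Thbs1* (-0.82), *B2m* (-0.81), *Scn9a* (-0.81), *Gpx3* (-0.72), *Ttr* (-0.72), *Car2* (-0.70), *Kcnk1* (-0.68), *Dusp6* (-0.67), *Tapbp* (-0.61), *Lonrf2* (-0.59), *Abcc9* (-0.59), *Epas1* (-0.58), *Btg2* (-0.58), *Fkbp9* (-0.57), *Chga* (-0.49), *Resp18* (-0.48), *Ccng1* (-0.48), *Scg5* (-0.47), *Sox9* (-0.47), *Unc5c* (-0.45), *Irf2bpl* (-0.43), *Ndufa1* (-0.41), *Trp53inp1* (-0.39), *Syvn1* (-0.39), *A330076H08Rik* (-0.38), *Pam* (-0.36), *Sec16a* (-0.33), *Sytl5* (-0.32), *Atp5l* (-0.30), *Sqle* (-0.28), *Eif2ak3* (-0.26), *Myt1l* (-0.24) and *Sec31a* (-0.20). It was larger in alphaIRS2KD cells for *AF357425* (0.51), *Irs2* (0.43), *DQ267102* (0.39), *Smad7* (0.37) and *AF357355* (0.34).

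Among genes whose knockdowns moved in opposite directions, the differences were *Nrp2* (-2.56), *Alb* (2.02), *Plpp3* (-1.90), *Ano1* (1.88), *Cdh11* (-1.78), *Morc4* (-1.74), *Elmo1* (1.73), *Slc35f1* (1.67), *Pdpn* (1.60), *Ctnna1* (-1.41), *Asah2* (-1.29), *Sorbs2* (-1.29) and *Irs1* (-0.92).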

How the results depend on the processing

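The counts of shared higher and lower genes, 395 and 449, varied with the test and its threshold. They were 199 and 194 at an adjusted p of 0.01, 41 and 29 with at least a 1.5-fold change in each knockdown, and 128 and 113 where each knockdown had to pass. The methods' t-test gave 1267 and 1218 before and 60 and 38 after Benjamini-Hochberg adjustment. With the 6 knockdown arrays as 1 group they were 112 and 104, with the cell line as a random block (consensus correlation 0.03) 96 and 89, and with line means as samples 0 and 0 (450 and 467 at an unadjusted p under 0.05). An intensity trend with robust shrinkage gave 619 and 681, and array weights (0.36 for alphaIRS2KD replicate 3 to 1.59) 597 and 575. Leaving out 1 array at a time gave 232 to 525 higher and 239 to 420 lower genes.

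The numbers of the arrays did not pair them: correlations of same-numbered arrays' deviations were -0.08 to 0.02. With the replicate number as a block the counts were 290 and 328, 21 named genes lost the call, 23 mitotic genes became 10 and 10 guidance genes became 6. Median centring, which shifted the median change to -0.013, gave 289 and 392. No pooled change of a named gene turned its direction under any alternative. Of the named genes, 109 lost the call with the knockdown arrays as 1 group, 115 with the line as a random block, 152 with the adjusted t-test of the methods and 176, all that were called, with line means. A looser threshold, quantile normalization, leaving out the dimmest 30 percent, averaging a gene's probe sets and testing all probe sets kept both counts within 1.5 times.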
